A study of Mus musculus with 3 samples.

Results

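The PRC1 subunits described here are 9 genes for proteins of Polycomb repressive complex 1, namely Cbx2, Cbx6, Cbx7, Cbx8, Ring1, Rnf2, Bmi1, Pcgf2 and Phc2. They were chosen by gene symbol and not by a cutoff on their values, though with earlier results of these data known. All 9 were found among the 46603 Ensembl genes of the deposited counts. RNA-Seq of polyadenylated RNA was available for 3 libraries of KO-actin cells, numbered replicates 1 to 3. The cells are MEFs (mouse embryonic fibroblasts, genotype label Beta-actin KO-NLS) that lack endogenous β-actin and express β-actin fused to a nuclear localization signal (NLS), so all 3 libraries carry both the knockout and the re-expressed protein. They form 1 condition. Wild-type and KO MEFs were not used here, and the values are levels in KO-actin cells and not an effect of nuclear actin. Neither the clonal origin of the cells nor the promoter of the fusion protein is given in the labels, and nothing states that the replicates came from separate cultures, so the spread between them may be technical.

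PRC1 is a chromatin complex that keeps developmental genes silent. A RING-type E3 ligase, Ring1 (RING1A) or Rnf2 (RING1B), pairs with a PCGF protein and attaches ubiquitin to a lysine near the end of histone H2A. In canonical PRC1 the PCGF protein is Bmi1 (PCGF4) or Pcgf2 (MEL18), and the complex also holds a polyhomeotic protein and a chromobox (CBX) protein whose chromodomain binds H3K27me3, the methyl mark written by PRC2. Variant PRC1 has Rybp or Yaf2 in place of the CBX protein. In fibroblasts, PRC1 is best known for holding down the Cdkn2a locus, and Bmi1 was first linked to cell lifespan in MEFs through that locus.

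The libraries held 49932446, 49587453 and 44383636 counts. Levels are given as CPM, the counts of a gene scaled to a common library size, after trimmed mean of M-values (TMM) scaling, and genes are compared as CPM per kilobase of exon, with the length taken as all annotated exons of the gene unless stated. Actb, the targeted gene, measured 1078, 1114 and 1063 CPM; counts per gene cannot tell the fusion transcript from the endogenous one, so this does not check the knockout. Of 10 fibroblast markers 8 reached 1 CPM, with Vim and Col1a1 among them, while Thy1 (0.836 CPM) and Dcn (0.152 CPM) did not. The fibroblast list summed to 12425 to 13440 CPM. The lists of 6 markers each summed to 80.2 to 88.9 CPM for epithelial, 10.9 to 12.9 CPM for blood, 57.2 to 57.3 CPM for neuronal and 3.17 to 4.01 CPM for pluripotent cells. Ptprc had counts of 0, 1 and 0, and Zfp42 had 0 counts in all 3 libraries, which allows at most 0.0676 CPM in the shallowest. The neuronal and pluripotency lists had 4 and 1 markers of at least 1 CPM, the epithelial list 3 and the blood list 1. Among them were Krt19 (44.1 CPM), Krt18 (37.9 CPM), Map2 (40.9 CPM) and Cd74 (11.3 CPM). In bulk RNA, fewer cells of a type and less RNA per cell cannot be told apart.

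All 9 subunits were detected in every library, with at least 875 counts each. Their mean levels ran from 18.7 to 361 CPM, and 7 of the 9 lay above the median of 5.88 CPM per kb over 13770 genes that passed a minimum of 10 counts in every library. Over all exons, Cbx7 and Cbx8 lay below that median. From highest to lowest by CPM per kb the order was Cbx6, Phc2, Bmi1, Pcgf2, Rnf2, Ring1, Cbx2, Cbx8 and Cbx7. The ranges of the 3 libraries overlapped for only 2 pairs of neighbours in that order, Rnf2 with Ring1 and Ring1 with Cbx2. With the length of the longest protein-coding transcript in place of all exons, Ring1 moved above Rnf2 and Cbx7 above Cbx8, and no neighbours overlapped. With the median protein-coding transcript, Cbx7 measured 38.1 CPM per kb, above Cbx2 at 9.65 and Cbx8 at 5.23. The low place of Cbx7 thus depended on the length used.

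**Figure D1:**
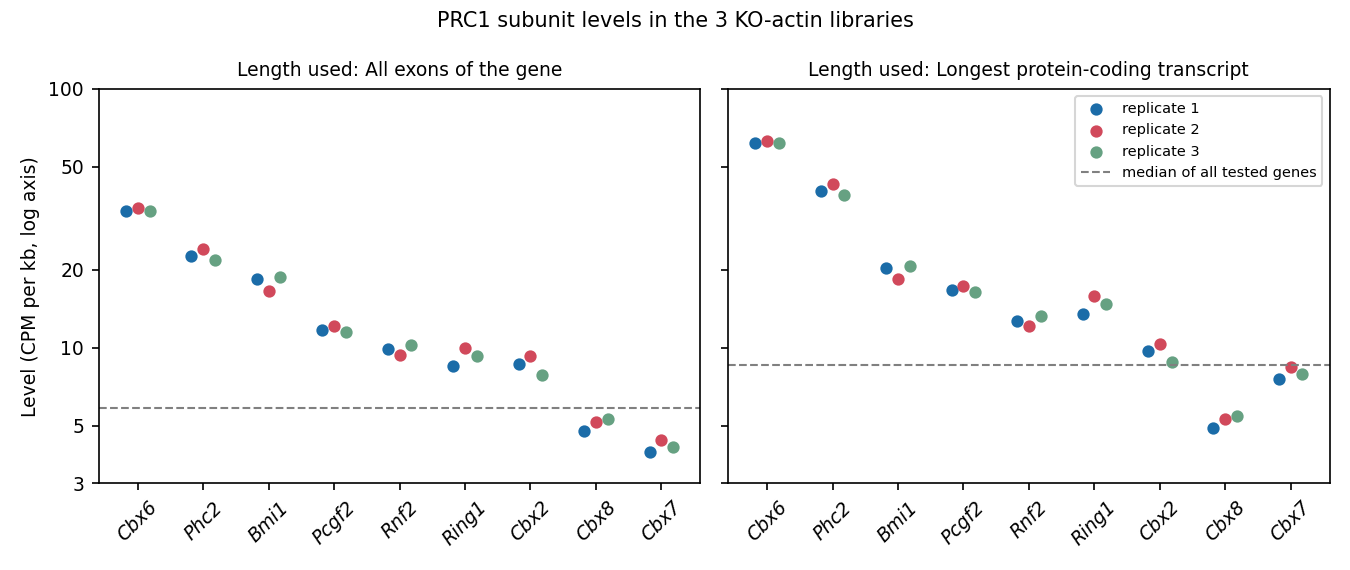
Levels of the 9 PRC1 subunits in the 3 KO-actin libraries, as CPM per kb on a log axis, with length taken from all exons or from the longest protein-coding transcript. Points are libraries and the dashed line is the median tested gene. Cbx6 was the highest on both scales, at 34.1 and 62.3 CPM per kb.

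The chromobox subunits carry the chromodomain that reads H3K27me3. Because the paralogs are related, their coding sequences were compared first, to see whether reads of one could be counted for another. The most similar 90 coding bases of the 4 genes, which encode part of the chromodomain, are printed 5′ to 3′ from GENCODE release M21. Capitals mark positions at which the 4 sequences were not all identical.
Cbx2: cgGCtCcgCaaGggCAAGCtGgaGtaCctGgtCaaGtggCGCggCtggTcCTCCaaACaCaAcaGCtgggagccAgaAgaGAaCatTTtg
Cbx6: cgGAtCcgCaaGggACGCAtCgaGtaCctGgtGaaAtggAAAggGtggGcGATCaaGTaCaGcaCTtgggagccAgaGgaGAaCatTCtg
Cbx7: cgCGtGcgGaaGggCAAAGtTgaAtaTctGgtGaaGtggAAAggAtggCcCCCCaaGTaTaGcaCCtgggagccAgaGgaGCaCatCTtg
Cbx8: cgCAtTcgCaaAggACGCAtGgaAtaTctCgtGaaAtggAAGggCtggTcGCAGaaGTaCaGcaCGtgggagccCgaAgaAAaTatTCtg
All 4 genes shared 52 of these 90 bases (57.8%), and the closest pair, Cbx6 and Cbx8, shared 73 of 90 in their own most similar stretch. No window of 50 bases of the longest transcript of any of the 9 subunits occurred in another of them, so an exact match of that length could come from no more than 1 subunit.

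Cbx6 (ENSMUSG00000089715, chr15:79823896-79834688, minus strand, GRCm38) was the most abundant of the 4 chromobox subunits. It measured 359, 367 and 358 CPM in replicates 1 to 3, or 34.1 ± 0.463 CPM per kb (SD, n = 3), at the 87.1 percentile of tested genes. The libraries lay close together, with an SD of 0.02 on the log2 scale. Cbx6 is a less studied member of the family. Its exons overlap those of Npcd on the same strand by 563 bases, and Npcd is listed at 0 counts in each library.

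Cbx2 (ENSMUSG00000025577, chr11:119022962-119031270, plus strand), known for compacting chromatin and for a role in gonad development, measured 37, 39.5 and 33.6 CPM, or 8.63 ± 0.703 CPM per kb (SD, n = 3). Replicate 2 was the highest and replicate 3 the lowest. Cbx8 (ENSMUSG00000025578, chr11:119036305-119040969, minus strand) measured 17.5, 19.1 and 19.6 CPM, or 5.10 ± 0.291 CPM per kb (SD, n = 3). Cbx7 (ENSMUSG00000053411, chr15:79915807-79971119, minus strand), which is known for extending the lifespan of fibroblasts through the Cdkn2a locus, measured 25.6, 28.7 and 26.9 CPM, or 4.17 ± 0.233 CPM per kb (SD, n = 3). Cbx7 overlaps Apobec3 on the opposite strand by 100 bases of exon, and the strand setting of the counting is not given in the sources used here. The genes lie in 2 groups: Cbx2 and Cbx8 are 5034 bases apart on chromosome 11 with no coding gene between them, and Cbx6 and Cbx7 are 81118 bases apart on chromosome 15.

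Per kilobase of exon, Cbx6 exceeded Cbx2 by 3.89-, 3.73- and 4.28-fold in replicates 1 to 3. It exceeded Cbx8 by 7.09-, 6.67- and 6.34-fold and Cbx7 by 8.56-, 7.84- and 8.14-fold. These 3 differences kept their direction with each of the 3 lengths, and the mean fold over Cbx7 was 4.68 with the median transcript. GC centring, which adjusts libraries against each other, leaves such mean ratios nearly unchanged. All 3 libraries had the same direction, so leaving out 1 replicate could not reverse it. Neither setting therefore tests the direction. With 3 libraries, a two-sided exact sign-flip permutation test cannot give a p below 0.25, which is what each of these pairs gave (0.286 after Benjamini-Hochberg adjustment over 8 pairs). The other chromobox ratios were smaller. Cbx2 exceeded Cbx8 by 1.82-, 1.79- and 1.48-fold, and by 1.84-fold on average with the longest transcript.

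Which of Cbx2, Cbx7 and Cbx8 was lower depended on the length used. Over all exons, Cbx2 exceeded Cbx7 by 2.20-, 2.10- and 1.90-fold, but the mean ratio was 1.21 with the longest protein-coding transcript and 0.253 with the median protein-coding transcript. Cbx8 exceeded Cbx7 by 1.21-, 1.18- and 1.28-fold over all exons, and the mean ratio was 0.655 with the longest transcript. The exons of Cbx7 add up to 6487 bases and its longest protein-coding transcript to 3388 bases, whereas these are 3675 and 3580 bases for Cbx8. Counts per gene do not show which transcripts were present, so the order of Cbx7 among the chromoboxes was not resolved.

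The RING subunits are the catalytic part of the complex. Their most similar 90 coding bases, from the part that encodes the RING finger, follow, with capitals at the bases that differ between the 2 genes.
Rnf2: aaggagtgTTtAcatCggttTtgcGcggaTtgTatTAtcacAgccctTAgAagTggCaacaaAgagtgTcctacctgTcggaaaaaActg
Ring1: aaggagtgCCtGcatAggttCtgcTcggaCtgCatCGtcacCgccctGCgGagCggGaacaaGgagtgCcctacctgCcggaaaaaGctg
The sequences were identical at 70 of 90 bases (77.8%), and the longest identical run anywhere in the 2 coding sequences was 14 bases. GC content was 57.8% over the exons of Ring1 and 40.03% over those of Rnf2.

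Ring1 and Rnf2 were present at nearly equal levels per kilobase of all exons. Rnf2 (ENSMUSG00000026484, chr1:151458004-151500955, minus strand), the RING subunit needed for early mouse development, measured 40.8, 38.8 and 42.5 CPM, or 9.86 ± 0.449 CPM per kb (SD, n = 3). Ring1 (ENSMUSG00000024325, chr17:34020792-34024680, minus strand), which can stand in for Rnf2 in part, measured 27.6, 32.3 and 30.2 CPM, or 9.26 ± 0.725 CPM per kb (SD, n = 3). Their ranges per kilobase overlapped, and replicate 2 was the library with the least Rnf2 and the most Ring1.

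Rnf2 over Ring1 per kilobase was 1.16 in replicate 1 (95% exact binomial interval 1.08 to 1.24), 0.944 in replicate 2 (0.883 to 1.01) and 1.11 in replicate 3 (1.03 to 1.19). The intervals cover counting error only. The mean ratio was 1.07, Rnf2 was higher in 2 of 3 libraries, and the exact sign-flip permutation test gave p = 0.50 (0.50 adjusted over 8 pairs). With the longest transcript the mean ratio was 0.863, and with the median transcript it was 2.50, so neither gene could be placed above the other. After centring of each library on genes of like GC content, the 3 ratios were 1.11, 1.05 and 1.04, and their SD on the log2 scale went from 0.16 to 0.05. This centring adjusts libraries against each other and leaves the mean ratio nearly fixed. An effect of GC content on the level of one gene against the other was not tested. Rnf2 overlaps Trmt1l on the opposite strand by 158 bases of exon, or 3.83% of its length.

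The PCGF subunits decide which kind of PRC1 is formed, and Bmi1 and Pcgf2 belong to the canonical kind. Their most similar 90 coding bases, again from the part for the RING finger, are shown with differing bases in capitals.
Bmi1: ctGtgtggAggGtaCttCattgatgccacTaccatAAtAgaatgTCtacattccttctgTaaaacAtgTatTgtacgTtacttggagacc
Pcgf2: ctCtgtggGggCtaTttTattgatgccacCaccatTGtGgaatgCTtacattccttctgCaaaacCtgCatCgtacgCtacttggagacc
They were identical at 74 of 90 bases (82.2%), with no identical run longer than 13 bases. Bmi1 has a copy in the annotation, the pseudogene Gm5946, which holds 18.3% of the 50-base windows of the longest Bmi1 transcript. Gm5946 had 2, 4 and 1 counts, and how reads matching both places were treated is not given, so the Bmi1 level is uncertain to that extent.

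Bmi1 was the higher of the 2 canonical PCGF transcripts in every library. Bmi1 (ENSMUSG00000026739, chr2:18677018-18686629, plus strand), a repressor of Cdkn2a, measured 73.2, 66.1 and 74.4 CPM, or 17.9 ± 1.13 CPM per kb (SD, n = 3). Pcgf2 (ENSMUSG00000018537, chr11:97688823-97700497, minus strand) measured 41.5, 43.0 and 40.7 CPM, or 11.8 ± 0.330 CPM per kb (SD, n = 3). The ranges per kilobase of all exons did not overlap. Bmi1 over Pcgf2 per kilobase was 1.57, 1.36 and 1.62 in replicates 1 to 3, with a mean of 1.51 and an exact sign-flip permutation p of 0.25, the smallest possible. The mean was 1.18 with the longest transcript and 4.85 with the median transcript. After GC centring the ratio of replicate 2 was 1.48, beside 1.51 and 1.55 in replicates 1 and 3.

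**Figure D2:**
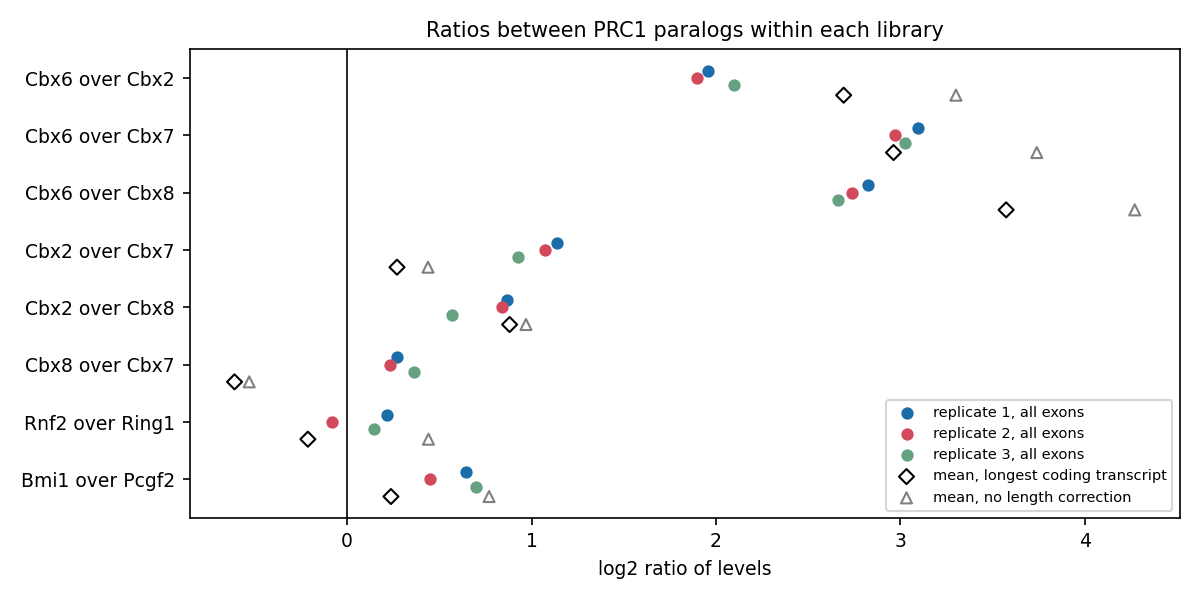
Ratios of CPM per kb between paralogous PRC1 subunits as log2 values, where 0 is equality. Filled points are the 3 libraries by all exons, diamonds the mean with the longest protein-coding transcript and triangles the mean of CPM with no length correction. Cbx6 over the other chromoboxes lies well above 0 throughout, while Cbx8 over Cbx7 and Rnf2 over Ring1 lie on either side of 0 depending on the length.

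Polyhomeotic proteins polymerise through a SAM domain and so join PRC1 complexes to each other. Phc2 (ENSMUSG00000028796, chr4:128654702-128752881, plus strand) measured 160, 170.0 and 154 CPM, or 22.8 ± 1.12 CPM per kb (SD, n = 3), the second highest of the 9 subunits. It was highest in replicate 2. Its paralogs Phc1 and Phc3 were lower, and Phc2 made up 70.4 ± 1.56% (SD, n = 3) of the summed CPM per kb of the 3 polyhomeotic genes, against 16.3% for Phc1 and 13.3% for Phc3. With the longest transcript the share of Phc2 was 75.2 ± 1.55%.

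The same shares were computed for the other places in the complex. Cbx6 made up 65.6 ± 0.776% (SD, n = 3) of the summed CPM per kb of the 4 chromobox subunits described, Cbx2 16.6%, Cbx8 9.81% and Cbx7 8.03%. Its share was 73.1% with the longest transcript, so Cbx6 held the majority among these 4 by either length. Ring1 held 48.4 ± 2.70% of the RING transcripts and Rnf2 the rest, which turned to 53.7% for Ring1 with the longest transcript. Of the 6 PCGF genes, Bmi1 held 33.3 ± 1.05% and Pcgf2 22.0 ± 1.38%, followed by Pcgf3 at 20.97%, Pcgf5 at 8.52%, Pcgf6 at 7.67% and Pcgf1 at 7.52%. Bmi1 and Pcgf2, the canonical PCGF proteins, thus held 55.3 ± 0.599% together by all exons and 47.9 ± 0.814% by the longest transcript, so the side of an even split depended on the length. The order of the single PCGF genes also moved with the length. Pcgf6 (12.6%) stood above Pcgf5 (11.8%) by the longest transcript, and Pcgf3 (35.2%) above Bmi1 (23.3%) with no length correction. These are shares of RNA and say nothing of the amounts of protein.

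**Figure D3:**
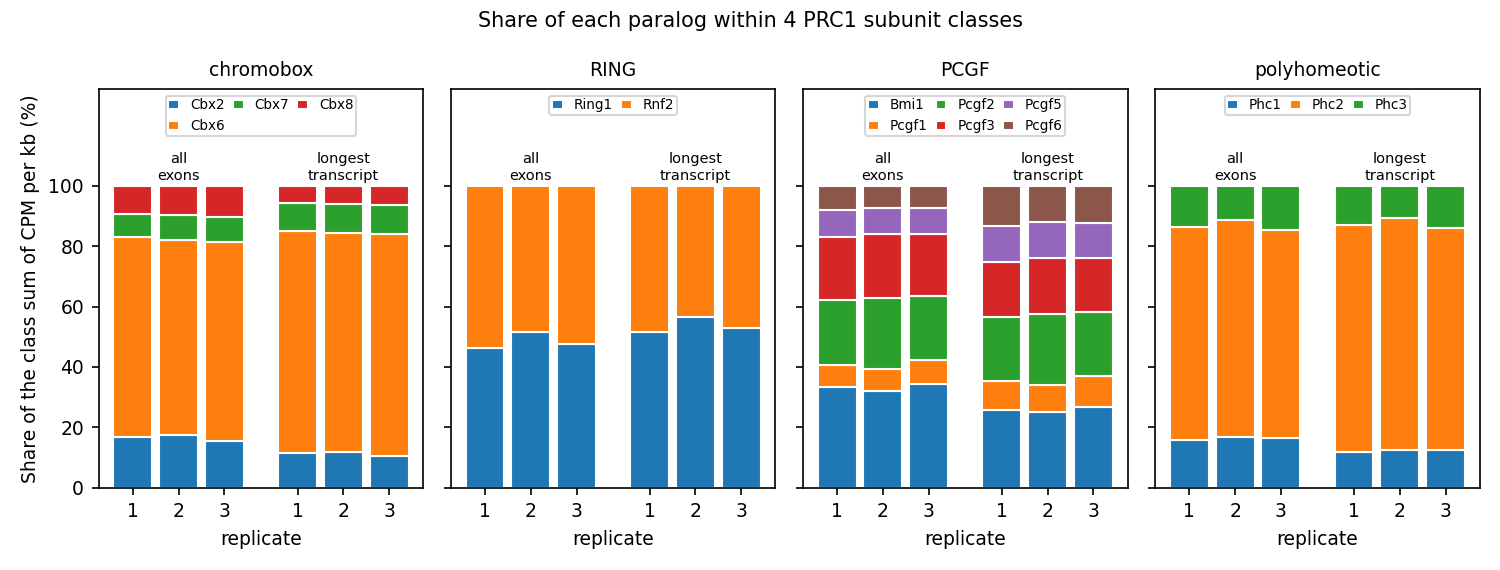
Share of each paralog in the summed CPM per kb of its class (the 4 chromobox subunits described, RING, PCGF and polyhomeotic genes), in percent, with length from all exons or from the longest protein-coding transcript. Each stacked bar is 1 library. Cbx6 (65.6% and 73.1%) and Phc2 (70.4% and 75.2%) held the largest shares among the genes shown, and the RING class was split nearly evenly.

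The 3 libraries were then compared for each subunit with a chi-square test of the counts against the TMM library sizes, adjusted by the Benjamini-Hochberg method over all 13814 genes tested. The counts of 6 of the 9 subunits differed between libraries by more than counting error, where the share over all tested genes was 43.9%. These were Phc2 (adjusted p = 9.77e-08), Bmi1 (8.5e-06), Cbx2 (7.04e-05), Ring1 (0.000508), Cbx7 (0.0375) and Rnf2 (0.0442). Cbx6 (0.0803), Cbx8 (0.102) and Pcgf2 (0.309) did not pass. With at least 100 counts required in every library, the same 6 passed, against 52.0% of 11059 genes. The differences were small, since the highest library exceeded the lowest by at most 1.18-fold for any subunit, and the median SD on the log2 scale was 0.08 both for the 9 subunits and for all tested genes. Without replicate 2, Cbx2 alone passed, at an adjusted p of 0.0421, and the share over all genes was 12.5%.

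Replicate 2 was the highest library for 6 of the 9 subunits, against 39.7% of all tested genes. It was the lowest for 2, Rnf2 and Bmi1, against 37.4% of all tested genes. Its deviation moved with GC content. The 7 subunits with 54.8% GC or more in their exons all measured more in replicate 2 than the mean of replicates 1 and 3, from 0.03 for Cbx6 to 0.16 for Cbx2 and Ring1 on the log2 scale, and the 2 subunits with 42.1% or less measured 0.10 (Rnf2) and 0.16 (Bmi1) less. The deviation of all tested genes moved with GC content in the same direction. Replicate 2 was highest for 69.0% of 3629 tested genes of at least 54% GC, with a median deviation of 0.10. It was lowest for 72.6% of 2854 genes under 44% GC, with a median of -0.11. After centring on genes of like GC content, Ring1 alone of the 9 passed the test, against 29.8% of all genes tested that way. The part of GC content in the differences between libraries was otherwise not tested.

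**Figure D4:**
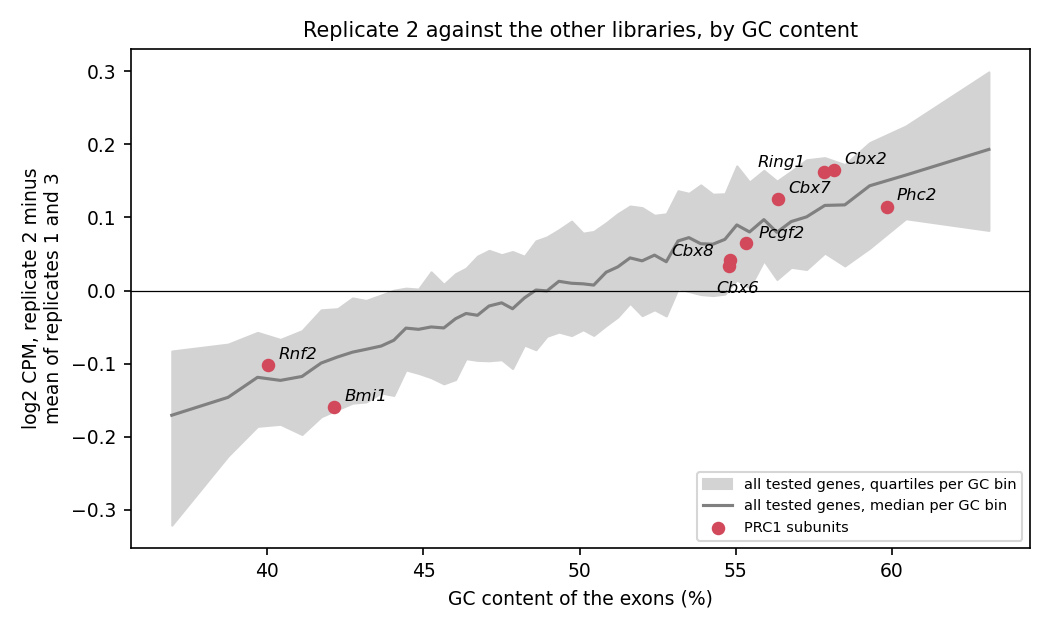
Deviation of replicate 2 from the mean of replicates 1 and 3 (log2, TMM-scaled) against the GC content of exons in percent, as the median and quartiles of tested genes in 50 GC bins, with the 9 PRC1 subunits as points. Both GC-poor subunits, Rnf2 and Bmi1, lie below 0 and the 7 GC-rich subunits above it, along the trend of all genes.

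The wider Polycomb system was read from lists of genes, and 35 of the 36 listed genes had a mean of at least 1 CPM. All 4 other canonical subunits listed did, from Scml2 at 0.308 CPM per kb to Scmh1, which like Scml2 is a homologue of the fly protein Scm, at 5.93 CPM per kb, and 2 of the 4 differed between libraries (0 without replicate 2). For this count and those below, the shares over all tested genes were the 43.9% and, without replicate 2, the 12.5% given above. Of 19 genes of variant PRC1, Auts2, a partner of the PCGF3 and PCGF5 complexes, had 1, 2 and 4 counts, and the other 18 reached 1 CPM, up to Tfdp1 at 71.7 CPM per kb. Of these 18, 9 differed between libraries, near the share of all genes, and only Rybp did without replicate 2. Replicate 2 was highest in 6 and lowest in 9 of the 18, against 39.7% and 37.4% of all tested genes. Rybp and Yaf2, which take the same place in variant PRC1, stood at 9.46 ± 0.565 and 38.3 ± 0.898 CPM per kb (SD, n = 3), a ratio of 3.85, 4.24 and 4.07 in replicates 1 to 3. This pair was singled out after its values were seen.

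The 4 genes of H2A ubiquitin removal ran from Usp16, a deubiquitinase, at 6.94 to Bap1, the enzyme of the Polycomb deubiquitinase complex, at 23.7 CPM per kb, and 3 of the 4 differed between libraries (2 without replicate 2, when Usp16 did not pass). The 4 genes of the PRC2 core ran from Ezh1 at 2.94 to Suz12 at 35.0 CPM per kb, with 3 differing (0 without replicate 2). Replicate 2 was lowest in 3 of them, which had 41.0 to 44.7% GC. It was lowest for 37.4% of all tested genes and for 72.6% of those under 44% GC. The HP1 chromoboxes bind H3K9me3 and not H3K27me3. Cbx1, Cbx3 and Cbx5, all under 44% GC, differed between libraries with replicate 2 lowest, as it was for 72.6% of genes of such GC content, and Cbx3 did not pass without replicate 2. They ran from Cbx1 at 29.3 to Cbx5 at 61.8 CPM per kb, all above Cbx2, Cbx7 and Cbx8 on that scale. Cbx1 and Cbx3 (31.8 CPM per kb) lay below Cbx6 by all exons (34.1 CPM per kb). By the longest transcript they lay above it, at 68.7 and 100.8 against 62.3 CPM per kb.

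Of the locus that PRC1 is best known for in MEFs, both genes were abundant. Cdkn2a, which encodes p16INK4a and p19ARF, measured 382, 474 and 400.2 CPM, or 357 CPM per kb, and Cdkn2b, the neighbouring cell cycle inhibitor, measured 66.6 ± 7.43 CPM (SD, n = 3), or 47.9 CPM per kb. Both were highest in replicate 2 and differed between libraries, also without replicate 2. Their exons held 59.5% (Cdkn2a) and 55.9% (Cdkn2b) GC. Replicate 2 was highest for 39.7% of all tested genes and for 69.0% of those of at least 54% GC. Counts per gene do not separate the p16INK4a and p19ARF transcripts of Cdkn2a.

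**Figure D5:**
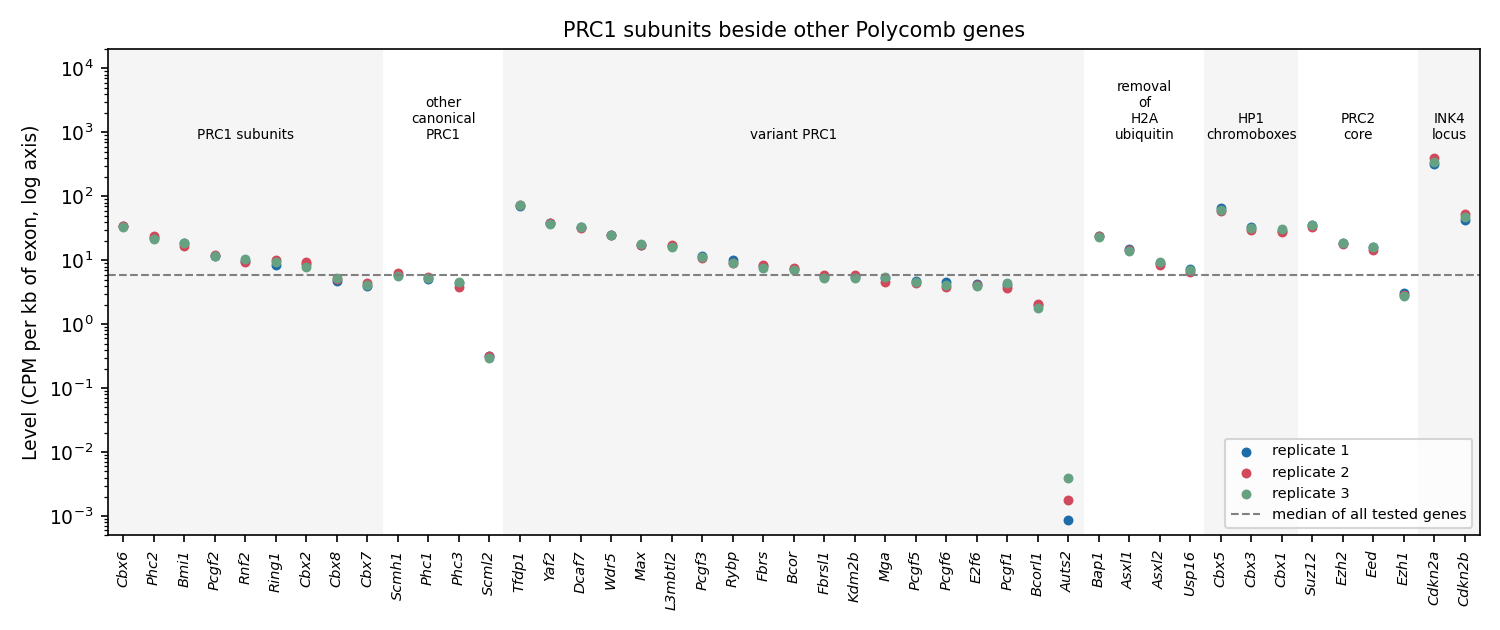
CPM per kb of exon of the 9 PRC1 subunits and of the other Polycomb lists on a log axis, with 1 point per library for each gene. The dashed line is the median tested gene at 5.88 CPM per kb. Cdkn2a (357 CPM per kb) is the highest gene shown and Auts2, with 1, 2 and 4 counts, the lowest.

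Promoter sequence was available for 8 of the 9 subunits, as 250 bases before the start of transcription in RefSeq on GRCm38.p6. For a gene with several starts, such as Phc2, the first was used. GC content of these stretches was 59.6 to 73.6%, against a median of 52.0% over the first promoter of 27025 genes. CACGTG, the E-box, was found on either strand in 5 of the 8 (Cbx6, Cbx8, Bmi1, Pcgf2 and Phc2), against 6.05% of all genes. Promoters 2 and 3 of Phc2, which were not used, held none. GGGCGG was found in 8 of 8 against 32.9%, CCAAT in 3 of 8 against 34.5%, TGACGTCA in 1 of 8 (Cbx8) against 1.62% and TATAAA in 0 of 8 against 12.97%. These letters were chosen after the sequences had been seen, and a match is a description of the sequence and not a bound site. The promoters of Cbx6 (chr15:79834334-79834583, minus strand) and Cbx7 (chr15:79932647-79932896, minus strand) are printed as those of the chromobox subunits that differed most per kilobase of all exons, with CACGTG in capitals.
Cbx6: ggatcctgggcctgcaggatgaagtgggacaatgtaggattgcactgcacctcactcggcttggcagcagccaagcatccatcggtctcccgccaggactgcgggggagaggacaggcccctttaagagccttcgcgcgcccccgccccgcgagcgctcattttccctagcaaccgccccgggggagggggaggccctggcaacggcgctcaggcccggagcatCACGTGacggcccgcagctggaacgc
Cbx7: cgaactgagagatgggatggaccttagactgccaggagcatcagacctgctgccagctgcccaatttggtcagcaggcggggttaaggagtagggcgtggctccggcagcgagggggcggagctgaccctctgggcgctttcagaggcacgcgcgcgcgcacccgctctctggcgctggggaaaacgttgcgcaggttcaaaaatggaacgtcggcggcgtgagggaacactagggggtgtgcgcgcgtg
The E-box of the Cbx6 promoter starts 26 bases before the start of transcription, and the Cbx7 stretch holds none. Both stretches lie inside the gene spans given above, so starts farther upstream were not covered.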

How the data were processed

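Polyadenylated RNA of KO-actin MEFs was sequenced in 3 libraries, for which the authors deposited unnormalized counts per Ensembl gene. The submitters' processing notes list Trimmomatic, FastQC, HISAT2, HTSeq, mm10 and GRCm38. Versions, strand setting and treatment of reads matching several places are not given in the sources used here, which can change the counts of genes with copies or overlaps. Totals were 44383636 to 49932446 counts, and a floor of 3 counts and the binomial intervals cover counting error only.

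Symbols were matched for 46005 of 46603 genes. GENCODE release M21 (GRCm38) gave the coordinates, lengths and GC content. TMM factors were computed with edgeR 4.0.16 (R 4.3.3). For genes with at least 10 counts in each library, the counts were compared with the scaled library sizes in scipy 1.17.1 (chi-square, 2 degrees of freedom, adjusted p under 0.05), and the test was checked on simulated data. Paralogs were compared per library and by an exact two-sided sign-flip permutation test. The alternatives were DESeq2 1.42.0 size factors, total counts, other lengths, other filters, GC centring in 50 bins and leaving out each replicate. The rule for named genes was to name all 9 subunits, the highest, the lowest and any gene under 1 CPM of each Polycomb list, Actb, and genes beside or overlapping a subunit; Rybp, Yaf2 and the remaining paralogs of each class were added. Members and lists were chosen with earlier results of these data known. One listed gene is not reported here and was left out of the lists and shares.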

Additional observations from a re-analysis of the deposited data

How the results depend on the processing

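The length of the genes moved the paralog ratios most. As mean log2 ratios per kilobase, the longest protein-coding transcript gave 2.69 for Cbx6 over Cbx2, 2.96 for Cbx6 over Cbx7, 3.57 for Cbx6 over Cbx8, 0.27 for Cbx2 over Cbx7, -0.61 for Cbx8 over Cbx7, -0.21 for Rnf2 over Ring1 and 0.24 for Bmi1 over Pcgf2. The median transcript gave 4.21, 2.23, 5.09, -1.98, -2.87, 1.32 and 2.28 for the same pairs, and no length correction gave 3.30, 3.74, 4.27, 0.44, -0.53, 0.44 and 0.77, with 0.97 for Cbx2 over Cbx8. The reversed ratios were Cbx8 over Cbx7 in all 3, Rnf2 over Ring1 with the longest and Cbx2 over Cbx7 with the median transcript. Leaving out 1 replicate gave log2 ratios of 1.93 to 2.03, 3.00 to 3.06, 2.70 to 2.78, 1.0 to 1.11, 0.25 to 0.32, 0.03 to 0.18 and 0.55 to 0.67 for the same pairs, and 0.70 to 0.85 for Cbx2 over Cbx8. Another scaling changed no subunit's mean level over the 3 libraries by more than 0.0337%. Single libraries moved more between TMM and total counts, since the TMM factors of replicates 2 and 3 were 0.9938 and 1.0067.

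The number of subunits differing between libraries was 6, and 1 after GC centring. It was 4 with no filter on low counts and 5 with total counts, when Cbx7 did not pass. With 1 replicate left out it was 1 to 5 (5 without replicate 1, 1 without replicate 2, 4 without replicate 3). Over all genes the count was 6063 (43.9%), and 4106 of 13770 after GC centring and 1748 of 14037 without replicate 2. The share over all genes was 25.9% of 23189 with no filter and 43.9% with total counts. It was 33.1% of 13957 without replicate 1 and 34.0% of 14082 without replicate 3. For the 6 subunits called, 31 of 48 calls over 8 other settings were kept and 17 lost. The 3 subunits not called gained 1 call, Cbx6 without replicate 1. No paired analysis was possible because there is no other condition to pair the replicates with; the paralog ratios are already within libraries. For Cbx6, Cbx8 and Pcgf2 the spread between libraries was not told apart from counting error at this depth, and the number of libraries limits every test between paralogs.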
